A study of Homo sapiens with 3 samples.

Results

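miR-3607-5p and miR-3607-3p are the mature strands, or arms, annotated on the 5′ and 3′ side of 1 microRNA hairpin. RefSeq lists their gene under small nucleolar RNAs (snoRNAs), as SNORD138, with MIR3607 among its older names. The 2 arms were taken by name from the 137 miRNAs in a table of raw read counts, and they were chosen by their counts in that table, which were known beforehand. Counts, ranks and the arm ratio in that table are therefore given as a description, with no test.

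The samples were 3 small RNA libraries of HEK293, an established line of human embryonic kidney cells, all in 1 group with no treatment named. Total RNA had been extracted with phenol and chloroform, per the labels' protocols. The labels do not tell whether the libraries were made from separate cultures. The miRNA table had 1 column that matched a sample title, that of library 1, and 2 further per-sample columns that match no sample title, which were left out. The arm values below thus come from library 1 alone and carry no replicate error, while the snoRNA reads were available for libraries 1, 2 and 3 (19989, 11958 and 19092 counts). The column was checked against the separate snoRNA files of library 1: all 122 snoRNA entries in it had exactly the count of those files.

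A microRNA is cut from a hairpin by Drosha and Dicer, and 1 of its arms is usually kept in an Argonaute protein while the other is lost. Box C/D snoRNAs, the class that SNORD138 is named in, guide 2′-O-methylation of rRNA and are mostly released from introns of their host genes. Short fragments of some snoRNAs are bound by Argonaute, and several loci have been listed both as a snoRNA and as a microRNA gene.

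The locus lies on chromosome 5 (GRCh38). GENCODE 29 annotates a miRNA gene of 79 bases on the plus strand at 86620497 to 86620575 (AC108110.1), and it is the annotated small RNA gene that overlaps SNORD138. It lies inside COX7C, which codes for a small subunit of cytochrome c oxidase, on the same strand. In the transcript COX7C-201, which has 3 exons, the locus is in the intron of 1171 bases between exon 2 and exon 3, 1000 bases after exon 2 and 92 bases before exon 3. Of the 7 annotated COX7C transcripts, 1 (COX7C-203) keeps this intron, so that the locus is there inside an exon, in its untranslated part. COX7C holds 0 other annotated miRNA or snoRNA genes.

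**Figure D1:**
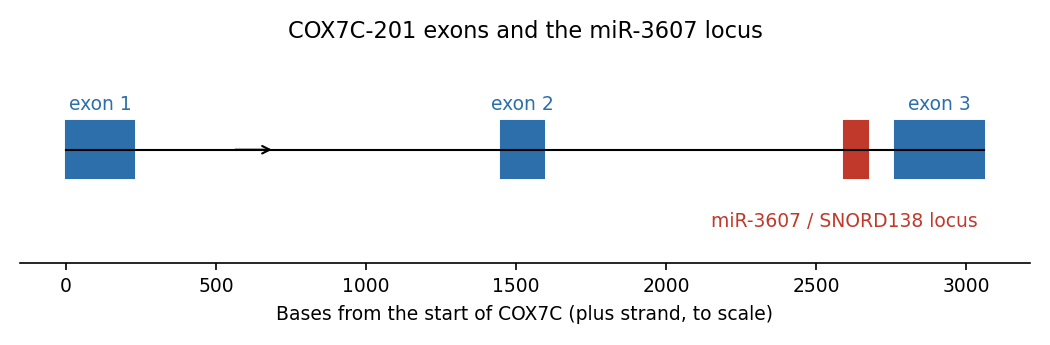
Map of COX7C-201 in bases from the start of the gene, to scale, with its exons in blue and the miRNA gene of 79 bases that holds miR-3607 in red. The locus sits near the 3′ end of the intron, 92 bases before exon 3.

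Among the 137 listed miRNAs, miR-3607-5p was an abundant one in library 1 and miR-3607-3p a scarce one. The lowest listed count was 11, and miRNAs without a row do not enter this comparison. The 5p arm had 741 raw counts, which was 1.23% of the 60085 listed miRNA counts (exact 95% binomial interval 1.15% to 1.32%). The 3p arm had 34 counts, or 0.0566% (0.0392% to 0.0791%). These intervals cover counting error only, since without molecular identifiers several reads can stem from 1 molecule. The median listed miRNA had 91 counts, so the 5p arm was 8.14-fold above the median and the 3p arm was 0.374 of it.

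By count the 5p arm ranked 13 of 137 miRNAs, and ranked 9 among the 75 rows of 5p arms. Of the 12 miRNAs above it, 5 belonged to the miR-17-92 cluster, a set of miRNAs cut from 1 transcript that MYC activates, and the leading one, miR-19a-3p, had 11171 counts, 15.1-fold more. The rows named for the cluster made up 56.0% of listed miRNA counts, so every share depends on whether it is included. Its row of miR-19b-3p, with 10752 counts, is shared by 2 copies of that miRNA, so the part cut from this 1 transcript is not known. Without the cluster miR-3607-5p took 2.81% of the remaining 26408 counts (2.61% to 3.01%) and ranked 8, and miR-3607-3p took 0.129%. The 5p arm also lay above 3 of the 8 rows of the cluster: miR-92a-3p with 416 counts, miR-17-3p with 60 and miR-19b-1-5p with 23. Of these, miR-17-3p and miR-19b-1-5p were the scarcer arms of their hairpins.

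The miRNAs next to the 5p arm in the order are well-known ones. Directly above it were miR-191-5p with 752 counts, miR-221-3p, which represses the cell cycle inhibitor p27, with 788, and miR-15b-5p, which represses BCL2, with 1122. Directly below it were miR-26a-5p with 725 counts, let-7a-5p, a member of the let-7 family that represses RAS genes, with 708, and miR-106b-5p with 656. The exact Poisson interval of miR-3607-5p overlapped that of 6 miRNAs, at ranks 11 to 17, so its place among these neighbours could not be told apart by counting error. It did not overlap that of miR-15b-5p.

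The 3p arm ranked 105 of 137 miRNAs and ranked 37 among the 50 rows of 3p arms, with 32 miRNAs below it. Above it stood miR-574-3p with 37 counts, miR-744-5p with 41, and miR-196a-5p, a HOX cluster miRNA, and miR-378a-5p with 43 each. Below it stood miR-671-5p with 31 counts, miR-23a-3p with 29 and miR-26b-5p with 28. Its interval overlapped those of 47 miRNAs, at ranks 85 to 129, so at 34 counts its rank is loose. The lowest listed miRNA had 11 counts.

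**Figure D2:**
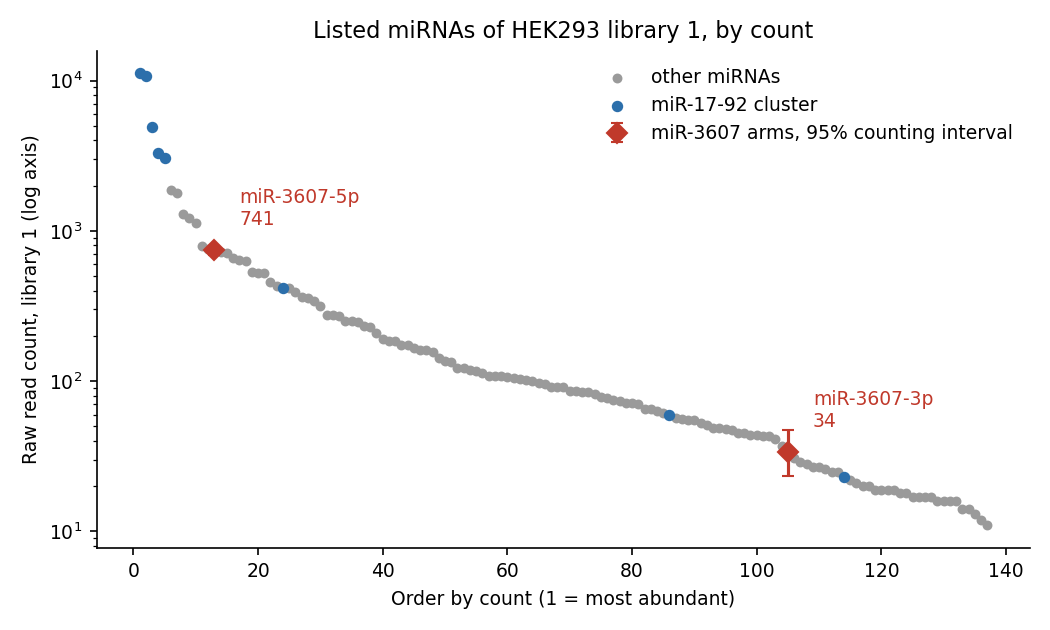
Raw read counts of the 137 listed miRNAs in library 1 (log axis) against their order by count, with the miR-17-92 cluster in blue and the miR-3607 arms in red with exact 95% Poisson intervals. The 5p arm (741 counts) lies at the foot of the steep upper part and the 3p arm (34 counts) in the flat lower part.

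The 5p arm made up 95.6% of the 775 counts on both arms (exact interval 93.9% to 96.9%), a 5p to 3p ratio of 21.8 (15.5 to 31.7). Counts were not corrected for the length of the arms. Both arms were listed for 13 hairpins, and of these 5 (38.5%), miR-3607 among them, had a 5p arm at least 10-fold above the 3p arm, while 2 (15.4%) had a 3p arm at least 10-fold above the 5p arm. A strong excess of 1 arm was thus not rare in this table. By the ratio miR-3607 ranked 5 of 13, where the median ratio was 2.67. This order leaves out hairpins with 1 listed arm: with an unlisted arm set to the lowest listed count of 11, miR-3607 ranked 22 of 112.

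Above miR-3607 were miR-93 with 1287 counts on 5p and 17 on 3p (ratio 75.7), miR-15b with 1122 and 17 (66.0), miR-17 with 3062 and 60 (51.0) and miR-106b with 656 and 19 (34.5). Next below was miR-590, with 134 and 16 counts (8.38). These 5 were the hairpins nearest to miR-3607 by log2 ratio. The interval of miR-106b (21.9 to 57.7) overlapped that of miR-3607, and those of the other 4 did not. The 5p counts of these 2 were 741 and 656, and their 3p counts 34 and 19.

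Their 5p arms are shown because they tell which miRNAs stood nearest to miR-3607 in arm balance. The sequences are those of RefSeq (GRCh38.p14), 5′ to 3′, with the seed (bases 2 to 8, which pair with targets) in capitals.
miR-106b-5p: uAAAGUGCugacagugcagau
miR-17-5p: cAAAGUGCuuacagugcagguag
miR-93-5p: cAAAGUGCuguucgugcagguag
miR-15b-5p: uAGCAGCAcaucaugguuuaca
miR-590-5p: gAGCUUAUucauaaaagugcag
Of the 5, 3 share the seed AAAGUGC and are members of the miR-17 family, whose targets include the cell cycle inhibitor p21, so they are related sequences and not independent examples. A mature sequence was matched for 123 of the 137 listed miRNAs, and the arms of miR-3607 are given by name only.

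The remaining hairpins had ratios nearer to 1 or the opposite balance. miR-361 had 56 counts on 5p and 21 on 3p (2.67), and miR-28 had 14 and 17 (0.824). Besides miR-28, those with more 3p counts were miR-574, miR-423, miR-126, an endothelial miRNA, miR-378a, with 43 counts on 5p and 525 on 3p, and miR-19b, with 23 and 10752. The 5p row of miR-19b is that of the copy miR-19b-1, while its 3p row is shared by 2 copies, so its ratio is uncertain. Among the 13 hairpins with both arms listed, the 34 counts of miR-3607-3p were not low for a minor arm. The scarcer arm of these had between 14 and 70 counts with a median of 21, and 4 of them lay above miR-3607-3p. Hairpins whose scarcer arm had no row are not in this set, so it does not describe minor arms in general.

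**Figure D3:**
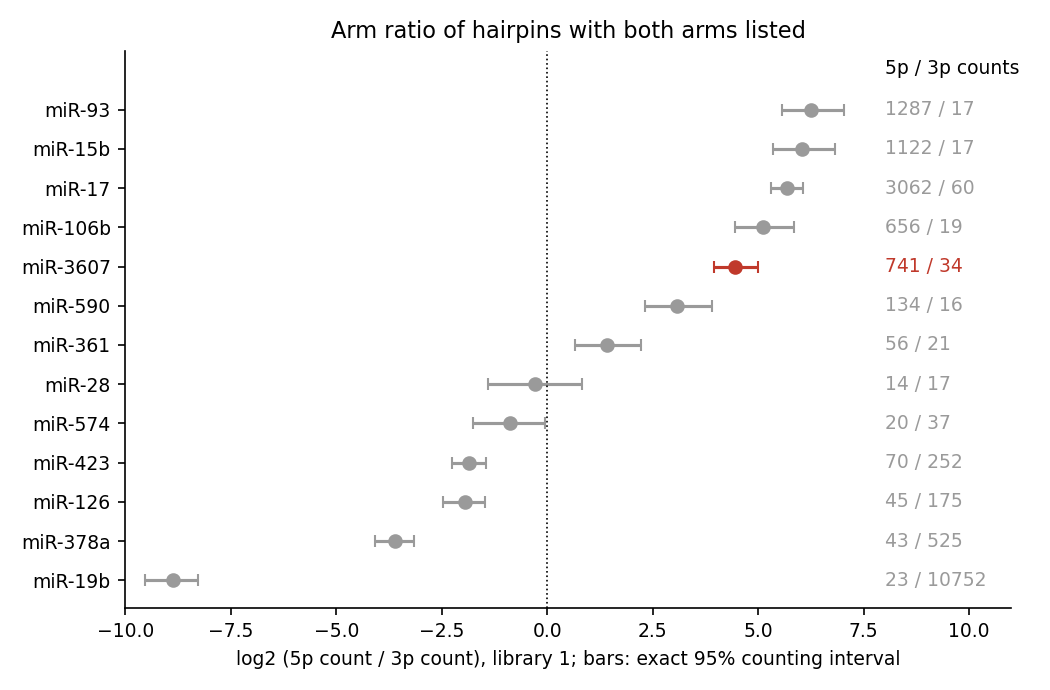
log2 ratio of 5p to 3p counts in library 1 for the 13 hairpins with both arms listed, with exact 95% counting intervals and the counts at the right. miR-3607 (red, 741 and 34 counts) ranks 5 of 13 from the top, with an interval that overlaps that of miR-106b. Hairpins with 1 listed arm are not drawn.

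With both arms summed, miR-3607 had 775 counts, 1.29% of the listed miRNA counts (1.20% to 1.38%). It ranked 12 of 124 hairpin names, between miR-221 (788) and miR-191 (752).

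The snoRNA side of the locus was looked for in the files of snoRNA reads. Of their 260 entries, 147 of them box C/D, 0 matched SNORD138 or its synonyms, and 0 had the number of either name within their own. Entries with names of the SNORD type numbered 7 and ran from SNORD119 to SNORD127. Had SNORD138 been among the RNAs searched, 0 counts would allow a share of up to 0.0150% in library 1, 0.0251% in library 2 and 0.0157% in library 3 (floor of 3 counts). The files do not tell whether it was searched, so no level of the full-length snoRNA can be stated. The nearest snoRNA gene on chromosome 5 with reads was SCARNA18, a Cajal body RNA 3.56 Mb away, with 1, 5 and 5 counts in libraries 1, 2 and 3.

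Set against the snoRNA reads of the same library, the 5p arm was a common small RNA. Of the 240 snoRNA entries with reads in library 1, 2 had more than its 741 counts: SNORD31 with 1092 and SNORD45A with 742, of which 14 and 5 reads were of 20 to 24 nt. The counts of SNORD45A and of SNORD42B (699) lay inside the exact Poisson interval of miR-3607-5p (689 to 796). Reads on these snoRNAs were mostly of other lengths, so the counts do not compare like with like. All 240 entries together had 532 reads of 20 to 24 nt (exact Poisson interval 488 to 579), spread over 137 entries with at most 22 on 1 entry. The count of miR-3607-5p was 1.39-fold that sum. The table gives no read lengths for miRNAs, so how many of the 741 reads were of that size is not known.

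Of 10 snoRNAs described as miRNA genes, SNORD138 was the only one whose miRNA had rows in the table. The miR-3607 arms were chosen from the rows of this table, so that SNORD138 had rows was fixed in advance. The other 9 miRNAs (miR-664a, miR-664b, miR-1291, miR-1248, miR-3651, miR-3653, miR-1201, miR-768 and miR-3647) had none. The list pairs miR-664b with SNORA56, but the GENCODE annotation places this miRNA in SNORA36A, so SNORA56 is doubtful as a member. A missing row does not show a low count in library 1: the table lists the 122 snoRNA entries that exceed 10 counts in each of the 3 libraries, and 39 entries with more than 10 counts in library 1, up to 102, were left out of it. Whether the miRNA part was filtered in the same way was not tested. The sources also do not tell whether all 9 of these miRNAs were among those searched, so some may have had no possible row.

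Most snoRNAs of this list were listed the other way round from miR-3607, with a snoRNA entry and no miRNA row. This describes the listing and not the output of the loci, and miR-3607 was chosen from the listed rows. Whether SNORD138 was searched is not known, and a missing miRNA row does not show a low count. Of the 10, 8 had an entry, and SNORD138 and SNORD111B had none. Together they took 0.460%, 0.711% and 0.670% of the snoRNA counts in libraries 1, 2 and 3 (92, 85 and 128 reads), a mean of 0.614% ± 0.13 (SD, n = 3). In library 1 the 775 counts of the miR-3607 arms were 8.42-fold the 92 reads on all of these snoRNAs. The first are counts on miRNA rows and the second reads on snoRNA entries, so the fold does not compare like with like. SNORA81 had 22, 15 and 47 reads, SNORD126 25 in each library, SNORA84 18, 2 and 20, and SNORD71 12, 7 and 8. SNORD125 had 8, 1 and 3 reads, SNORA56 1, 0 and 6, and SNORA34 0, 1 and 2, so that 6 of the 10 had reads in every library. The values of the list include SNORA56 as listed. SNORA36A, where the GENCODE annotation places miR-664b, is not in the list and had 1, 3 and 1 reads. Reads of 20 to 24 nt on the list numbered 10, 34 and 14, and SNORA36B gave 6, 31 and 13 of them.

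**Figure D4:**
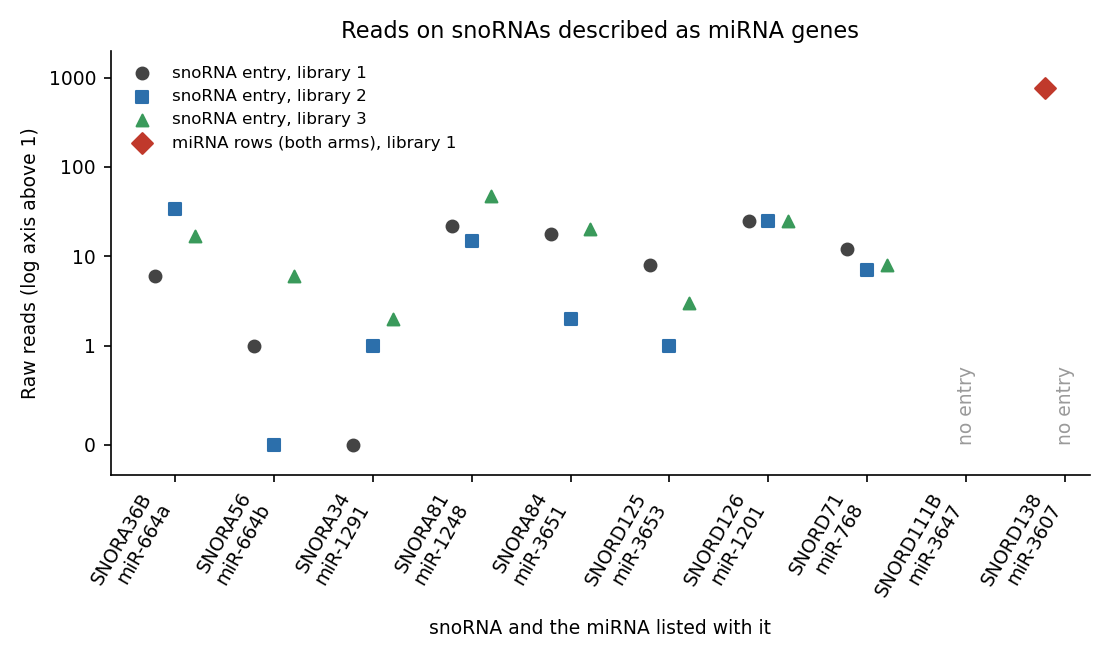
Raw reads on the 10 snoRNAs described as miRNA genes in libraries 1, 2 and 3 (log axis above 1), with the summed miRNA counts of miR-3607 in library 1 as a red diamond. SNORD138 and SNORD111B have no snoRNA entry, and the 775 counts of miR-3607 lie above every snoRNA of the list, the highest of which is SNORA81 with 47 reads in library 3. The miR-3607 arms were chosen by their counts, so the height of the diamond was known beforehand. SNORA56 is drawn as listed, although the GENCODE annotation places its listed miRNA, miR-664b, in SNORA36A.

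SNORA36B, a box H/ACA snoRNA that overlaps miR-664a, had reads that could be set against the positions of a miRNA arm. The sequence of its 3p arm is printed because reads could be placed on it, with the seed in capitals (RefSeq, GRCh38.p14, 5′ to 3′).
miR-664a-3p: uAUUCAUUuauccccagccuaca
This arm spans positions 106 to 128 of the 131 bases of SNORA36B, and 6, 29 and 12 reads of 20 to 24 nt in libraries 1, 2 and 3 began at its first base, 47 of 50 such reads on that snoRNA. Reads that spanned this arm exactly numbered 4, 14 and 5, or 23 in all. Whether these reads were miRNA products was not tested. Reads of 20 to 24 nt that began at the first base of miR-664a-5p numbered 0. No such placement could be made for miR-3607, whose counts are listed without read positions.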

How the data were processed

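The deposited values are raw counts, per the file headers: a table with 1 count per miRNA or snoRNA, and per library a record of entry, read length, first and last position and count for each snoRNA read. The submitters' processing notes name the build GRCh38.p10. No aligner, trimming step or filter is named in the sources used here. The table's 2 per-sample columns that match no sample title were left out. Reads on near-identical copies cannot be assigned with certainty.

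The members and lists were chosen with earlier results of these data known. Shares and arm ratios have exact (Clopper-Pearson) 95% binomial intervals and single counts exact Poisson intervals. With 1 library for the arms, no test was run. The interval of the arm ratio was also run on simulated counts, which bears on counting error only and not on the spread between libraries. Entries were matched to symbols and synonyms of RefSeq's genes (GRCh38.p14, for names and for the gene that overlaps SNORD138), and coordinates came from GENCODE 29. Named miRNAs were the members, 3 neighbours on each side by count (ties kept), the leading miRNA, the 5 hairpins nearest in arm ratio and the 3 largest ratios in each direction. SNORD31, SNORD45A, SNORD42B, miR-92a-3p, miR-361, miR-28 and miR-423 were named after their values were seen. Alternatives were other denominators, a pseudocount of 0.5, count minimums, a fold of 4, other lists and leaving out each library. The tools were SciPy 1.17.1, NumPy 2.4.6, pandas 2.3.3, matplotlib 3.10.9 and Python 3.11.15.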

Additional observations from a re-analysis of the deposited data

How the results depend on the processing

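The share of miR-3607-5p was 2.81% without the miR-17-92 cluster and 0.941% of all listed miRNA and snoRNA counts, against 1.23%, and that of miR-3607-3p was 0.129% without the cluster, against 0.0566%. Without the cluster the 5p arm ranked 8 in place of 13. With an unlisted arm set to the lowest listed count of 11, miR-3607 ranked 22 of 112 hairpins by arm ratio, in place of 5 of 13, because hairpins with 1 listed arm entered. The 5p to 3p ratio was 21.5 with 0.5 counts added to both arms. With at least 100 counts on both arms 0 hairpins were left, so that setting gave no value, and counts per base of the arms were not run. At a fold of 4, 6 of 13 hairpins had the 5p excess, against 5. The mean share of the 10 snoRNAs, 0.614%, was between 0.565% and 0.691% without 1 library each, 2.88% among reads of 20 to 24 nt and 1.10% with SCARNA15 added. The list pairs SNORA56 with miR-664b, but GENCODE 29 places that miRNA in SNORA36A (1, 3 and 1 reads). With the 7 snoRNA genes that overlap a miRNA gene in GENCODE 29, chosen after seeing the data, the share was 0.498%. No paired analysis was possible because there is 1 group. The arm values rest on 1 library, and 34 counts limit the 3p arm.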
